A study of Mus musculus with 15 samples.

Results

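H3K27Me3 in pancreatic islets was compared between mice on a high-fat diet that contained O304 (HFD-O304) and mice on the high-fat diet alone (HFD). The comparison rests on 4 of the 15 samples of the series, 2 replicates per group, whose alignments were merged by the authors into 1 peak list per group. All peaks of these 2 lists on chromosomes 1 to 19 were used, 14254 in HFD and 20289 in HFD-O304, and peaks that overlapped by at least 1 bp were joined into 23121 regions. A region with peaks of both lists is called shared, and the others are called HFD-O304 only or HFD only.

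The animals were male CBA mice, and both groups ate the high-fat diet, so that they differed by O304, a compound that activates AMPK, the cellular energy sensor. Islets were isolated with collagenase, and each chromatin sample was made from pooled islets. The islet preparation holds beta, alpha and delta cells and could hold exocrine, endothelial and immune cells. A lean group on regular chow (RD) and lists of H3K27Ac, a mark of active promoters and enhancers, served only as other readouts of the same regions.

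H3K27Me3 is trimethylation of lysine 27 of histone H3. It is written by Polycomb repressive complex 2, is read by the CBX proteins of Polycomb repressive complex 1, and covers CpG-rich promoters of developmental regulators that a tissue keeps silent. In beta cells the same system is known to act on promoters of other lineages and on some of the so-called disallowed genes, housekeeping enzymes and transporters that would disturb insulin secretion if expressed. Promoters of genes that islets use, such as those of insulin and of the beta cell transcription factors, are normally free of the mark.

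Each group had 1 list, so no spread between replicates was measured and no difference between the groups could be tested. The values are therefore given side by side. Shares carry 95% Wilson intervals. Enrichments and their ratios carry 95% exact intervals on the number of fragments estimated in a peak. All intervals cover counting error only and leave out the variation between animals and between immunoprecipitations. In whole islets, fewer cells that carry the mark and less mark per cell cannot be told apart.

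The sequences below show the kinds of sites on which the results turn. The first set holds 6 promoters, from 250 bases before to 50 bases after the RefSeq start of the gene in GRCm38.p6, 5′ to 3′ on the strand of the gene, with CG dinucleotides in capitals. Gata3 (chr2:9878551-9878850, minus strand), a regulator of T cell and other lineages, and Onecut1 (chr9:74861671-74861970, plus strand), a regulator of pancreatic progenitors, were marked in both lists. Nkx6-1 (chr5:101664662-101664961, minus strand), a beta cell factor, and Gpr4 (chr7:19212288-19212587, plus strand), a proton-sensing receptor, were marked in HFD-O304 only. Aqp5 (chr15:99590778-99591077, plus strand), a water channel of exocrine glands, and Glp1r (chr17:30901617-30901916, plus strand), the receptor for the incretin GLP-1, were marked in HFD only.
Gata3: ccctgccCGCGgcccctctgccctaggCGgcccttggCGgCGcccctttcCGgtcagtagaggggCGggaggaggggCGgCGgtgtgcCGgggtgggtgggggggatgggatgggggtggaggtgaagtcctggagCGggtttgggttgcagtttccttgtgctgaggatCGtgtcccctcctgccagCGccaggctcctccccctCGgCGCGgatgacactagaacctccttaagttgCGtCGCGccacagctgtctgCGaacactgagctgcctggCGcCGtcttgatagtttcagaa
Onecut1: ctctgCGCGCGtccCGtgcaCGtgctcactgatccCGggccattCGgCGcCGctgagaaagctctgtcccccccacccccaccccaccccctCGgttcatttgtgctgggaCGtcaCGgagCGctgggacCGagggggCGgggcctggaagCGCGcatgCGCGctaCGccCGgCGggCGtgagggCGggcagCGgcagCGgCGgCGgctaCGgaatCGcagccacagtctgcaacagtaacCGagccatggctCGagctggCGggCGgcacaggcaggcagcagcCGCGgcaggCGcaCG
Nkx6-1: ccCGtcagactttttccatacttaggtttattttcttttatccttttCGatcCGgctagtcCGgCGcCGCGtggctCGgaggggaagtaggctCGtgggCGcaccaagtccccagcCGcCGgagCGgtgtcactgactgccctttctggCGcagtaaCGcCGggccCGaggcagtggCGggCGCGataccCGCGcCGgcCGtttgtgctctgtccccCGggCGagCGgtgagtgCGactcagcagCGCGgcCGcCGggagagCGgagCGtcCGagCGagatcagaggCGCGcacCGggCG
Gpr4: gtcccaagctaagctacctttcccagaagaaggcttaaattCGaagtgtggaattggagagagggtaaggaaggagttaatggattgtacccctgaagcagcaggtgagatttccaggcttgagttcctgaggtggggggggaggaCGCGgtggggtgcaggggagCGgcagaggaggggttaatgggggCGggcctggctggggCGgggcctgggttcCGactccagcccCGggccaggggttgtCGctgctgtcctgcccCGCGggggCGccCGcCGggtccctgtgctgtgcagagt
Aqp5: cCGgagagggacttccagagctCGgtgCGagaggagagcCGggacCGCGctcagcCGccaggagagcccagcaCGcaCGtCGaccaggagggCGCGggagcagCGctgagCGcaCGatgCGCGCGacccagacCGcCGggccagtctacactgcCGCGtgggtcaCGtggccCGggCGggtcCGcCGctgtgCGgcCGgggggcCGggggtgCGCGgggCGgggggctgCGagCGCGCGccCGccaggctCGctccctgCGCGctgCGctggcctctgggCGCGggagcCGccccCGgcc
Glp1r: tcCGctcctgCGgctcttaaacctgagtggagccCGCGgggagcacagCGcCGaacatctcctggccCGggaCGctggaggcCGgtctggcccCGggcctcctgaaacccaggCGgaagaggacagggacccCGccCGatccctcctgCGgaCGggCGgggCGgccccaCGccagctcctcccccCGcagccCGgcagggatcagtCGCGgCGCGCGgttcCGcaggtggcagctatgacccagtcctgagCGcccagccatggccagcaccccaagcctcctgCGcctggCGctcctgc

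The windows held 22 CG dinucleotides at Gata3, 38 at Onecut1, 40 at Nkx6-1, 14 at Gpr4, 46 at Aqp5 and 29 at Glp1r. The peaks covered these windows in whole, except at Onecut1, where the HFD-O304 peak began downstream at position 74862228, and at Nkx6-1, where the peak lay downstream of the window. At least 1 CG was present in 94.9% of such windows over all 20807 protein-coding genes on chromosomes 1 to 19, and the median was 12. Promoters marked in both lists had a median of 15 CG and those marked in HFD only also had 15, whereas those marked in HFD-O304 only had 7. A window with 10 or more CG was found at 67.7% of the promoters marked in both, 68.0% of those in HFD only and 42.2% of those in HFD-O304 only, against 54.5% over all genes.

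The second set shows 2 strong peaks of HFD-O304 only of at most 300 bases, the first with no repeat-masked bases and the second wholly repeat-masked, read from the plus strand of GRCm38.p6 with CG in capitals. The first lay within Abcc6, an ATP-binding cassette transporter gene, at chr7:46011170-46011431, 18871 bp from the nearest start site. The second lay within Vmn2r83, a vomeronasal receptor gene, at chr10:79476363-79476599. Both lay outside promoters, as did most regions in HFD-O304 only. They do not represent that class otherwise, because both lay within genes, whereas 69.2% of the regions in HFD-O304 only were intergenic.
Abcc6: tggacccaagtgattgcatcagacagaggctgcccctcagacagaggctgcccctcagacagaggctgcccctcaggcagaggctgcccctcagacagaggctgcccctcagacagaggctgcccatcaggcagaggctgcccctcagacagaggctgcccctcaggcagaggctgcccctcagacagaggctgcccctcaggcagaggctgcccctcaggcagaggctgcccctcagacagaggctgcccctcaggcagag
Vmn2r83: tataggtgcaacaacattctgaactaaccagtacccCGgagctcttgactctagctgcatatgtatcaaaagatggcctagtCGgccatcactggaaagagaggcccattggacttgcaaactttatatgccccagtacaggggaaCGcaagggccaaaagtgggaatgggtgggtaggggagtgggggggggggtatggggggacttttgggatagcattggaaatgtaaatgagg

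The Abcc6 peak held no CG dinucleotide and the Vmn2r83 peak held 3. A short unit recurred along the Abcc6 peak although it was not repeat-masked. Its most frequent word of 8 bases, AGAGGCTG, occurred 13 times on the plus strand and not at all on the minus strand. Counted on both strands, 2 or more copies were found in 19 (0.0822%) of the windows of 262 bases centred on the 23121 regions. Both peaks overlapped a peak of RD, and their pileup over background was 9.14 and 8.99. The median over all regions in HFD-O304 only was 3.23, so these 2 peaks were much stronger than most of that class.

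Pileup over background is the mean number of fragments over a base of the peak divided by the number expected if all kept fragments were spread evenly over the genome. The HFD list rested on 54166902 kept fragments and the HFD-O304 list on 57324419, after 55.0% and 56.9% of fragments had been removed as duplicates. This gave a background of 6.46 fragments per base in HFD and 6.74 in HFD-O304. No peak had a pileup under 20 in either list, so the lowest enrichment was 3.10 in HFD and 2.97 in HFD-O304. Most peaks lay close to this limit, with 60.2% of the HFD peaks and 59.9% of the HFD-O304 peaks within 20% of it.

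Marker genes were checked next. Of 8 beta cell markers, H3K27Ac was listed at the promoters of 7 in HFD and 6 in HFD-O304, with Ins2, Mafa and Pdx1 in both lists and Ins1 in HFD only. H3K27Me3 was listed at none of the 8 in HFD and at 1, Nkx6-1, in HFD-O304. The promoters of 6 acinar, 5 macrophage, 4 endothelial and 4 fibroblast markers carried no H3K27Ac in either list. Of these markers, H3K27Me3 was listed at Ptf1a (acinar) and Col1a1 (fibroblast) in HFD-O304 only, and at Kdr (endothelial), Pdgfra (fibroblast) and Sox9 (ductal) in both. The part of the cell makeup in the values below was not tested.

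The first question was how many regions carried the mark in each group. Shared regions numbered 10837, which was 46.9% of all regions, and they covered 17.2 Mb. HFD-O304 alone held 9214 regions, 39.9% (39.2 to 40.5), and HFD alone held 3070, 13.3% (12.8 to 13.7). The exclusive regions covered 5.37 Mb in HFD-O304 and 1.51 Mb in HFD. They were short, with a median length of 420.5 bp in HFD-O304 only and 361 bp in HFD only, against 1015 bp for shared regions.

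**Figure D1:**
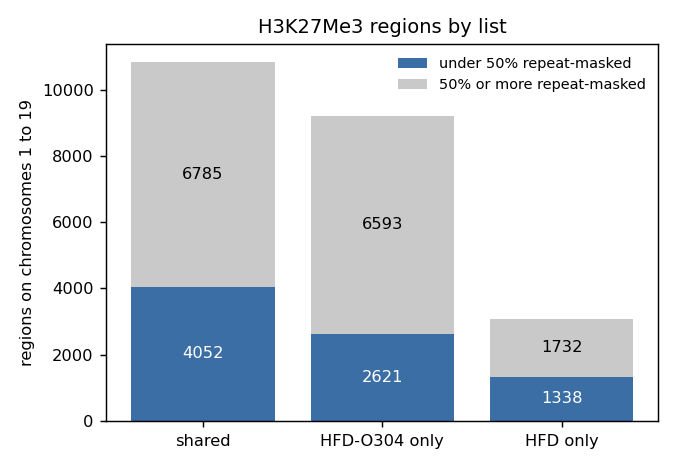
Number of joined H3K27Me3 regions on chromosomes 1 to 19 (vertical axis) held by both lists, by HFD-O304 alone and by HFD alone (horizontal axis), split by whether 50% or more of the bases were repeat-masked. The 9214 regions of HFD-O304 alone outnumber the 3070 of HFD alone, and 6593 of the former are repeat-rich.

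The size of the excess in HFD-O304 depended on how the lists were cut. When the HFD-O304 list was reduced to its strongest peaks so that both lists had the same size, 4759 regions were held by HFD-O304 alone and 4590 by HFD alone. A common limit on enrichment left 6829 and 3605. With only peaks of a −log10 q of at least 5 in either list, the counts were 2610 and 1010. These cuts were made before joining, so the counts include shared regions whose peak in the other list fell below the cut. Of the regions in HFD-O304 only before the cut, 866 had a −log10 q of at least 5, and of those in HFD only 232 did.

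The exclusive regions were weak. In 25.9% of the regions in HFD-O304 only the pileup over background was lower than the lowest value that could be called in HFD. Their median was 1.04 times that lowest value, and 98 (1.06%) reached 1.5 times it. Regions in HFD only had a median of 1.12 times the lowest value of HFD-O304, and 51 (1.66%) reached 1.5 times it. A value of at least 2 times the limit of the other list was found at 18 regions in HFD-O304 only and 2 in HFD only. Absence of a peak from a list thus says only that the pileup there was not called.

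**Figure D2:**
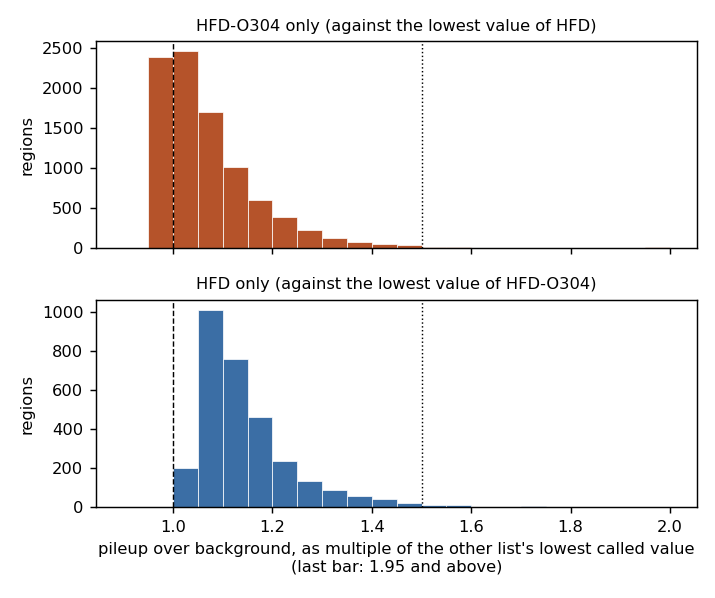
Number of regions (vertical axis) by their pileup over background as a multiple of the lowest value called in the other list (horizontal axis), for regions in HFD-O304 only (upper panel) and in HFD only (lower panel). Most regions pile up near 1, with medians of 1.04 and 1.12, and those below 1 in the upper panel are the 25.9% that could not have been called in HFD.

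The strongest exclusive regions that were not repeat-rich were few and distal. These genes were chosen after their values were seen. In HFD-O304 only, the peak within Abcc6 described above stood 2.95 times over the lowest value of HFD. A peak of 359 bp within Abraxas2, a subunit of a deubiquitinase complex, had a pileup over background of 6.28, and a peak within Dag1, which encodes dystroglycan, had 5.39. In HFD only, the highest values were 5.59 for a peak within Fhit and 5.55 for a peak within Cldn18, a tight junction gene. A peak within Tcf7l2, a Wnt effector known for its association with type 2 diabetes, had 5.05 in HFD and was 336 bp long. None of these 6 peaks overlapped a promoter window. The peaks within Abraxas2, Dag1 and Tcf7l2 each overlapped a peak of RD and H3K27Ac of both groups. Those within Fhit and Cldn18 overlapped none of these.

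The position of the regions differed between the classes. A region was placed at a promoter when it came within 1000 bp of the start of any protein-coding transcript. This was the case for 16.5% (15.8 to 17.2) of shared regions, 11.5% (10.4 to 12.7) of regions in HFD only and 5.33% (4.89 to 5.81) of regions in HFD-O304 only. The regions in HFD-O304 only were the most often intergenic, 69.2% (68.2 to 70.1), and the most often repeat-rich, 71.6% (70.6 to 72.5), where repeat-rich means that at least 50% of the bases were repeat-masked. For HFD only these shares were 60.7% and 56.4%. Among regions that were not repeat-rich the order of the promoter shares was kept, with 43.1% of 4052 shared regions, 25.6% of 1338 in HFD only and 17.2% of 2621 in HFD-O304 only. Among peaks whose −log10 q was 5 or more the order turned, to 9.51% of shared regions, 21.6% of regions in HFD only and 7.93% of regions in HFD-O304 only. That cut was made before joining, so these single-group regions include shared ones whose peak in the other list fell below it. Repeat-rich regions were at promoters in 0.590% of shared regions, 0.592% of those in HFD-O304 only and 0.635% of those in HFD only.

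Overlap with the other lists was highest for shared regions. A peak of RD overlapped 79.6% of shared regions, 25.4% (24.5 to 26.3) of regions in HFD-O304 only and 21.9% (20.4 to 23.4) of regions in HFD only. H3K27Ac of HFD or HFD-O304 overlapped 37.9% of shared regions, 17.9% (16.6 to 19.3) of regions in HFD only and 6.84% (6.34 to 7.37) of regions in HFD-O304 only. Shared regions were longer than the exclusive ones, and these shares were not adjusted for length.

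Regions in HFD-O304 only were crowded in parts of the genome. On single chromosomes the number of regions in HFD-O304 only per region in HFD only lay between 2.44 on chromosome 11 and 3.97 on chromosome 7, followed by 3.76 on chromosome 12 and 3.75 on chromosome 14. In windows of 1 Mb, HFD-O304 only exceeded HFD only in 1849 of the 2405 windows with a region and fell short in 228. A set of 28 windows with 20 or more regions in HFD-O304 only held 918 of them (9.96%), against 147 (4.79%) of the regions in HFD only. The windows were picked by their number of regions in HFD-O304 only, which fixes the order of these shares. Of all regions in these 28 windows 41.9% were repeat-rich, compared with 65.4% of all regions.

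Many of these windows lie over clusters of multi-copy genes. The genes in this paragraph were chosen after the values were seen. The window at 3 to 4 Mb of chromosome 14, where predicted and RIKEN cDNA genes start, had 67 regions in HFD-O304 only and 8 in HFD only. A window over the vomeronasal receptor genes Vmn2r40 to Vmn2r45 on chromosome 7 had 47 against 3, and one over the prolactin family genes Prl2c2 and Prl2c3 on chromosome 13 had 29 against 1. The cluster of Mup genes on chromosome 4, which encode pheromone-binding major urinary proteins, had 28 against 4, and the window of the zinc finger genes Zfp600 and Zfp981 had 33 against 5. In the 28 windows together the H3K27Me3 peaks numbered 1095 in HFD, 1800 in HFD-O304 and 1255 in RD. The choice of the windows favours a higher HFD-O304 count. The H3K27Ac peaks there numbered 783 in HFD and 623 in HFD-O304, beside 21021 and 19787 on all of chromosomes 1 to 19. A link between the 2 marks was not tested. Reads from near-identical copies cannot be assigned to a single copy with certainty, so the position within these clusters is uncertain.

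The second question was whether the strength of the mark differed where both groups had it. The log2 ratio of pileup over background, HFD-O304 over HFD, had a median of 0.01 over the 10837 shared regions and ranged from −0.88 to 1.19. A value 1.5-fold or more higher in HFD-O304 was found at 45 regions (0.415%) and 1.5-fold or more lower at 24 (0.221%). Of the 45, 31 were repeat-rich and 34 were under 1 kb. Of the 24, 21 were repeat-rich. Promoters were touched by 2 regions of each set.

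The direction of the median depended on the kind of region and on the scaling. It was −0.04 over the 4052 shared regions that were not repeat-rich and 0.04 over the 6785 that were. Without scaling to the background, an alternative chosen after seeing the data, both were positive, at 0.03 and 0.10. Scaling shifts all log2 ratios alike, so the difference of 0.08 between the 2 kinds of region did not depend on it. Bases covered by shared regions went from 13.4 Mb in HFD to 15.1 Mb in HFD-O304. Most of this lay in repeat-rich regions, with 5.93 Mb against 7.27 Mb, and less in the others, with 7.43 Mb against 7.83 Mb.

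**Figure D3:**
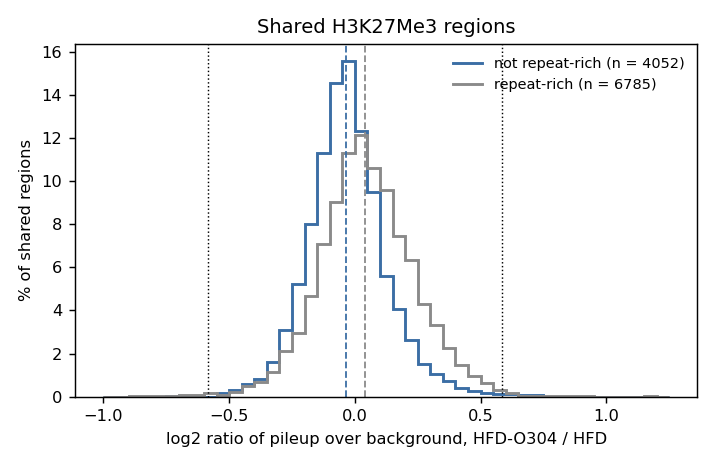
Share of shared regions in percent (vertical axis) by the log2 ratio of pileup over background, HFD-O304 over HFD (horizontal axis), for regions that were not repeat-rich and regions that were. Dashed lines mark the medians, −0.04 and 0.04, and nearly all regions lie inside a ratio of 1.5-fold.

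Domains that were long in HFD had close values in the 2 lists. Their choice by length in HFD favours a higher HFD count of bases. The 224 shared regions that were not repeat-rich and spanned 5 kb or more in HFD had a median log2 ratio of −0.02, and they covered 2.38 Mb in HFD and 2.37 Mb in HFD-O304. None of them was 1.5-fold or more higher in HFD-O304 and 1 was 1.5-fold or more lower, the region at Sfi1. At Sfi1, a centrosomal gene, the value was 19.5 in HFD and 12.8 in HFD-O304, over a region of 74279 bp of which 33.6% was repeat-masked. This region also overlapped a peak of RD and H3K27Ac of both groups. Its value was above 10 times background in both lists, so whether it is a Polycomb domain is uncertain. Among the regions whose bases differed most, the domain at Gata3 covered 18133 bp in HFD, against 13485 bp with O304. The domain at Shisa6 covered 5043 bp in HFD, against 1920 bp in the other group. The reverse was seen at the zinc finger gene Zfp980, with 6465 bp against 17183 bp, and at Hdhd3, with 2317 bp and 8867 bp.

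Genes were then compared through their promoters. A promoter peak was listed in both groups for 1750 of the 20807 protein-coding genes (8.41%), in HFD-O304 only for 429 (2.06%) and in HFD only for 309 (1.49%). The order of the last 2 numbers turned with the cut of the lists, to 213 in HFD-O304 only and 615 in HFD only with lists of equal size, to 322 and 422 with a common limit on enrichment, and to 214 and 226 with a −log10 q of at least 5. After such a cut, a promoter also counts for a single group when its peak in the other list fell below the cut. In 18 of the promoters in HFD-O304 only and 22 of those in HFD only the region itself was shared, and the peak of the other group lay outside the promoter window.

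Promoters listed in both groups had a median pileup over background of 3.66 in HFD and 3.52 in HFD-O304. The value was lower in HFD-O304 at 1176 of the 1750 with scaling and at 812 without it, and the median log2 ratio was −0.05 with scaling and 0.01 without. A 1.5-fold difference was reached at 3 promoters upward and 1 downward. The exclusive promoter peaks were weak as well. Those in HFD-O304 only had a median of 1.04 times the lowest value of HFD, and those in HFD only had 1.12 times that of HFD-O304, and 1 promoter in each set passed 1.5 times.

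The 2 exclusive sets differed in H3K27Ac. A peak of H3K27Ac in HFD or HFD-O304 was listed at 57.3% (51.7 to 62.7) of the promoters marked in HFD only and at 26.1% (22.2 to 30.5) of those in HFD-O304 only. The share was 42.2% (39.9 to 44.6) for promoters marked in both and 59.3% for promoters with no H3K27Me3. A peak of RD was listed at 74.0% of the promoters marked in both, 31.7% of those in HFD only and 21.4% of those in HFD-O304 only.

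The genes of 17 lists were assessed for the roles they play. Counts are read against the background of all genes, 8.41% in both lists, 2.06% in HFD-O304 only, 1.49% in HFD only and 88.0% in neither. No gene of these lists with a peak in both groups differed by 1.5-fold. The developmental regulators come first because they are the textbook targets of Polycomb.

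**Figure D4:**
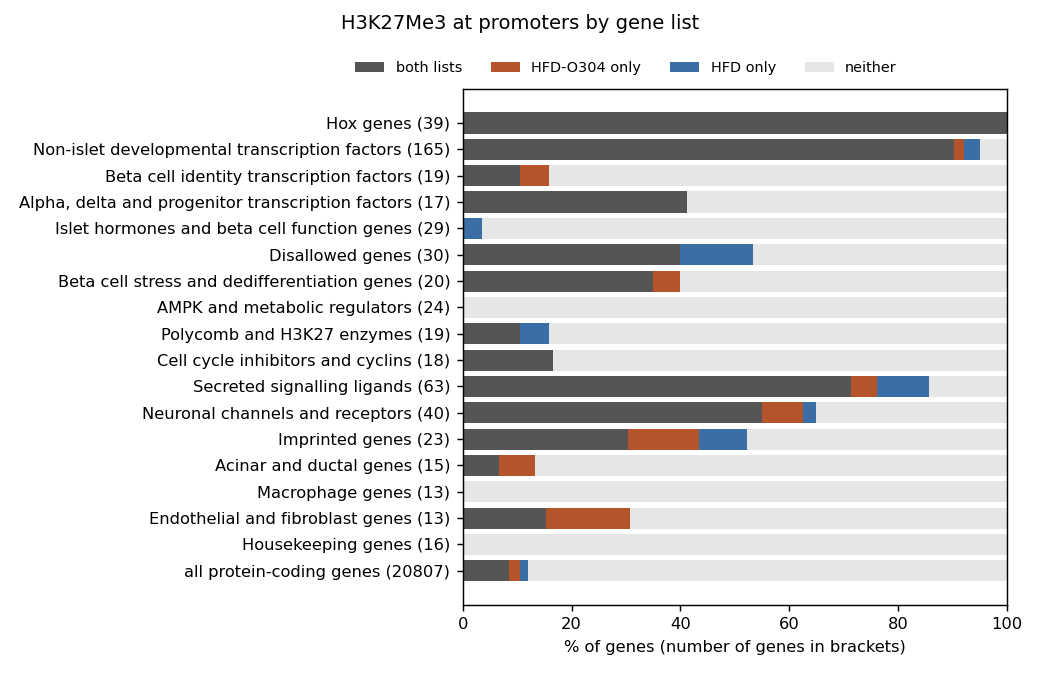
Share of genes in percent (horizontal axis) whose promoter was marked in both groups, in HFD-O304 only, in HFD only or in neither, for each gene list (vertical axis, with the number of genes in brackets). All 39 Hox genes were marked in both groups, while the lists of AMPK, macrophage and housekeeping genes carried no mark.

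All 39 Hox genes, which set position along the body axis, carried the mark in both groups. Their median value was 3.87 in HFD and 3.85 in HFD-O304, and the distinct peaks at their promoters covered 141.9 kb and 152.7 kb. Single log2 ratios lay between −0.27 at Hoxd4 and 0.17 at Hoxc12. Hoxd13, which patterns the digits, had 4.39 in HFD and 4.40 in HFD-O304. Hoxb5 had 3.66 (3.39 to 3.94) in HFD, against 4.06 (3.78 to 4.35), whereas Hoxa4 had 4.48 (3.84 to 5.21) and 3.74 (3.36 to 4.14). The value was lower in HFD-O304 at 25 of the 39 with scaling and at 12 without, so the list had no direction that held under both.

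The list of 165 developmental transcription factors of other tissues was marked at 149 genes in both groups, at 3 in HFD-O304 only and at 5 in HFD only. Its median log2 ratio was −0.04 with scaling and 0.02 without. No single difference reached 1.5-fold. Lhx4, a pituitary and motor neuron factor, had 4.90 (4.43 to 5.40) in HFD, against 4.03 (3.59 to 4.49) in HFD-O304, a log2 ratio of −0.28 (−0.50 to −0.07). Gata6, a factor of heart and early endoderm, had 3.91 and 3.23, a log2 ratio of −0.28 (−0.55 to −0.01). Without scaling the Gata6 interval includes 0. Dlx2, a forebrain factor, had 4.80 and 4.03, a log2 ratio of −0.25 (−0.41 to −0.10). Phox2a, which specifies noradrenergic neurons, lay on the other side with 3.65 (3.33 to 4.00) in HFD, against 4.35 (3.99 to 4.73) in HFD-O304, a log2 ratio of 0.25 (0.07 to 0.43).

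The single-group members of this list were near the limit of calling or belonged to a shared domain. In HFD only, Sox1, a neural progenitor factor, had 3.61, Atoh7 had 3.48, Lmx1b had 3.31 and T (brachyury) had 3.14. In HFD-O304 only, Lhx3 had 3.53 and the muscle factor Myod1 had 3.08. Pou3f1, a POU factor of neural and Schwann cells, had the strongest promoter peak of HFD only, 5.04 (4.68 to 5.42) over 5022 bp. HFD-O304 had a peak of 4.13 over 2647 bp in the same region, 1272 bp from the nearest start site of the gene, so the domain was present in both lists. Dbx2, listed in HFD-O304 only with 3.78, had an HFD peak of 4.17 in the same region.

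Beta cell identity factors were free of the mark about as often as all genes. Of 19 such factors, 16 (84.2%, beside 88.0% of all genes) had no peak in either list. These included Pdx1, Mafa, Neurod1, Isl1, Nkx2-2 and Pax6. H3K27Ac was listed at 17 of the 19 in HFD and at 18 in HFD-O304. Foxa1, a pioneer factor of the endoderm, had 4.40 (3.91 to 4.92) in HFD, against 3.82 (3.53 to 4.14) in HFD-O304. Its peak covered 2352 bp in HFD, against 5357 bp with O304. Esrrg, a nuclear receptor of mature beta cells, had 3.94 (3.66 to 4.22) and 3.53 (3.27 to 3.81), with H3K27Ac listed in HFD-O304 and not in HFD. The Nkx6-1 promoter peak of HFD-O304, at chr5:101663888-101664169, was 282 bp long with a value of 3.02 (1.98 to 4.42), 0.976 times the lowest value that could be called in HFD.

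Of 17 factors of alpha cells, delta cells and progenitors, 7 were marked in both groups and 10 in neither. The value was lower in HFD-O304 at all 7 with scaling and at 5 without. Onecut1 had 4.37 (4.04 to 4.73) in HFD, against 3.66 (3.21 to 4.15) in HFD-O304, a log2 ratio of −0.26 (−0.48 to −0.04). Scaling shifts each log2 ratio by −0.06, and without it the Onecut1 interval includes 0. The Onecut1 promoter peak was 4973 bp long in HFD, against 2175 bp. Hhex, the delta cell factor, had 4.22 and 3.49, a log2 ratio of −0.27 (−0.60 to 0.05), whose interval includes 0. Smaller differences were seen at others, with log2 ratios of −0.13 at Sox9, −0.08 at Irx2, −0.05 at Irx1 and −0.04 at Sox11. Peaks at these 7 promoters covered 22.9 kb in HFD, against 17.6 kb. Over all promoters marked in both, 856 were longer in HFD-O304 and 891 were shorter.

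Genes of the mature beta cell were nearly free of H3K27Me3. Of 29 genes for islet hormones, glucose sensing and exocytosis, 28 had no peak in either list, including Ins1, Ins2, Gcg, Sst, Slc2a2 and Trpm5. The exception was Glp1r, with a peak in HFD only at chr17:30901473-30902778 and a value of 3.41 (2.84 to 4.05), 1.15 times the lowest value of HFD-O304. H3K27Ac was listed at the Glp1r promoter in both groups, at 3.17 in HFD and 3.27 in HFD-O304. None of 24 genes for AMPK subunits, its upstream kinases and metabolic targets carried H3K27Me3 in either list, and none of 16 housekeeping genes did.

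Of 30 disallowed genes, 12 carried the mark in both groups (40.0%, beside 8.41% of all genes), 4 in HFD only and 14 in neither. Ldha, lactate dehydrogenase A, had 3.69 (3.36 to 4.04) in HFD, against 3.98 (3.50 to 4.51) in HFD-O304. Slc16a1, the lactate and pyruvate transporter MCT1, had 3.21 and 3.32. Hk1 and Hk2, hexokinases that would raise glucose use at low glucose, had ratios of opposite sign. Hk1 had 3.70 in HFD and 3.90 in HFD-O304, and Hk2 had 3.89 (3.41 to 4.43) and 3.27 (2.83 to 3.75). The highest log2 ratio was that of the chemokine gene Cxcl12, 0.22 (−0.03 to 0.48), with 3.17 in HFD and 3.70 in HFD-O304. With scaling, the interval of the log2 ratio at Cxcl12, Ldha and Hk2 includes 0.

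The 4 disallowed genes listed in HFD only were weakly marked. Yap1, a Hippo pathway effector, had 3.57 (2.46 to 5.02) over 317 bp. Rest, the repressor of neuronal genes, had 3.31 (2.73 to 3.98), and Oat and Gas6 each had 3.14. None of the 4 reached 1.5 times the lowest value of HFD-O304. H3K27Ac was listed in both groups at Yap1, Rest and Gas6 and in neither at Oat.

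**Figure D5:**
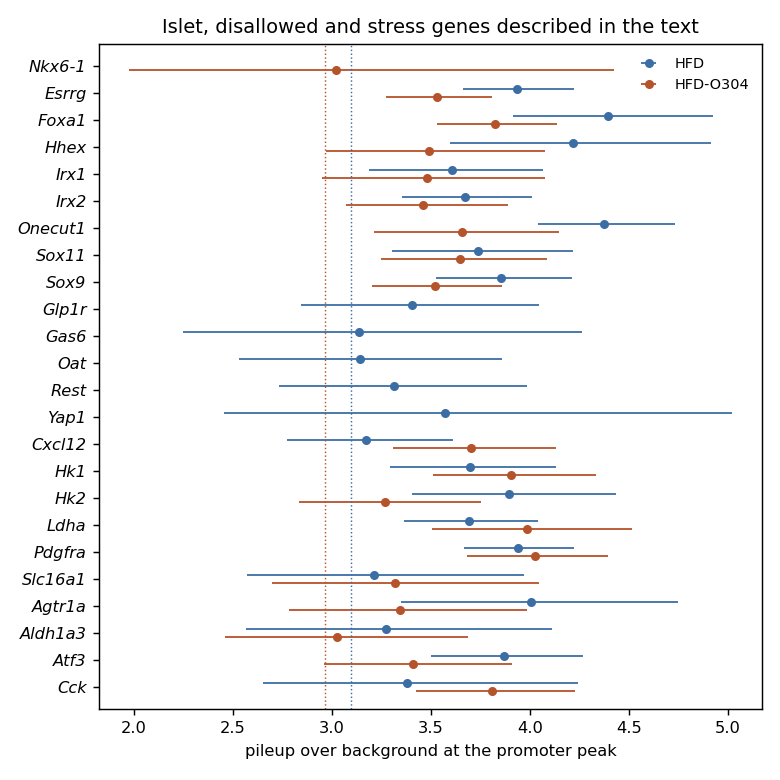
Pileup over background of the strongest H3K27Me3 peak at the promoter (horizontal axis) for the islet, disallowed and stress genes with a peak that are described in the text (vertical axis), in HFD and HFD-O304, with 95% exact intervals of counting error. The intervals of the 2 groups overlap at Hk2 (3.89 and 3.27) and at Ldha (3.69 and 3.98), and genes with a single point were listed in 1 group.

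Of 20 entries for beta cell stress and dedifferentiation, in which Ddit3 counts under 2 gene identifiers, 7 were marked in both groups, 1 in HFD-O304 only and 12 in neither. Aldh1a3, a marker of dedifferentiating beta cells, had 3.27 (2.56 to 4.11) in HFD, against 3.03 (2.46 to 3.68) in HFD-O304, while H3K27Ac was listed at its promoter in HFD, at 2.50, and not in HFD-O304. Cck, which encodes cholecystokinin, had 3.38 over 756 bp in HFD and 3.81 over 3067 bp in HFD-O304. Agtr1a, an angiotensin receptor, had 4.00 and 3.34, and the stress factor Atf3 had 3.87 and 3.41. Txnip, Hspa5, Atf4 and Trib3 had no peak in either list.

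Signalling genes were marked widely. Of 63 secreted ligands, 45 were marked in both groups, with a median log2 ratio of −0.07 with scaling and −0.01 without. Those listed in HFD-O304 only were Wnt3a, Fgf3 and Fgf10, and those in HFD only were Wnt8b, Wnt9a, Lefty2, Shh, Slit2 and Sema3a. The region was shared for 5 of these 9 genes, Wnt3a, Wnt9a, Lefty2, Shh and Slit2. Shh, a morphogen that is excluded from the developing pancreas, had 3.53 in HFD at its promoter. Its shared region held 4333 bp of peak at up to 4.03 in HFD and 7530 bp at 3.53 in HFD-O304, and the HFD-O304 peak lay 1870 bp from the nearest start site. Dll4, a Notch ligand named because its peak was among the 10 strongest promoters of HFD-O304 only, had 3.84 over 941 bp, and an HFD peak of 3.61 stood in the same region.

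Of 40 neuronal channels and receptors, 22 were marked in both groups, 3 in HFD-O304 only (Gria1, Htr1a and Oprm1) and 1 in HFD only (Syt1). Cacna1g and Cacna1h, T-type calcium channels, were lower in HFD-O304, at 5.10 against 4.21 and 4.59 against 3.76. Slc17a7, a vesicular glutamate transporter, was higher, at 3.43 against 4.11. The median log2 ratio of the list was −0.07, beside −0.05 for all promoters marked in both.

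The Polycomb machinery itself was free of the mark about as often as all genes. Of 19 genes for Polycomb and H3K27 enzymes, Cbx8 and Phf19 were marked in both groups and 1 other in HFD only. No peak was listed for the remaining 16 (84.2%, beside 88.0% of all genes). Cbx8, which reads H3K27Me3, had 3.79 over 9852 bp in HFD and 3.72 over 9667 bp in HFD-O304, with H3K27Ac in both. Among 18 cell cycle genes, Cdkn2a, the p16 and p19 locus that Polycomb silences in young beta cells, had 4.02 (3.45 to 4.66) and 3.72 (3.29 to 4.20), and Cdkn1c and Cdk6 were also marked in both groups. Of 23 imprinted genes, 7 were marked in both groups, Dlk1, Magel2 and Dio3 in HFD-O304 only and Kcnq1 and Mest in HFD only. The paternally expressed Mest had 3.96 over 860 bp in HFD.

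Lists of other cell types differed in the share of genes without the mark. It was 86.7% for acinar and ductal, 69.2% for endothelial and fibroblast and 100% for macrophage genes, beside 88.0% for all genes. Of 15 acinar and ductal genes, Car2 was marked in both groups and Ptf1a in HFD-O304 only, at 3.14. Of 13 endothelial and fibroblast genes, Kdr and Col1a2 were marked in both groups and Col1a1 and Acta2 in HFD-O304 only, at 3.75 and 3.29. None of 13 macrophage genes carried the mark.

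Outside the lists, the strongest promoter peaks of each group were taken by their −log10 q, leaving out repeat-rich peaks. In HFD-O304 only these included Tchh, a hair follicle gene, with 4.39 (4.05 to 4.75) over 4613 bp, C1s2, a complement protease, with 4.06, Car3, a carbonic anhydrase, with 3.81, and Gpr4 with 3.81 (3.04 to 4.71) over 726 bp. At Tchh an HFD peak of 4.84 over 4588 bp stood 1152 bp from the start site, so that this domain was shared. The region at C1s2 was shared as well, with 409 bp of HFD peak at 4.00. In HFD only they included Slc35f3 with 4.23, Dnajc22 with 4.17, the tight junction gene Cldn1 with 4.16, Il12rb2 with 4.00 and Aqp5 with 4.02 (3.53 to 4.55) over 2107 bp. The region at Dnajc22 was shared, with 4673 bp of HFD-O304 peak at up to 3.64, 1146 bp from the nearest start site. Aqp5 was also among the 5 longest regions of HFD only. Nr4a3, an orphan nuclear receptor, had 4.00 over 3888 bp in HFD, and HFD-O304 had 669 bp of peak in the same region at 3.55. H3K27Ac was listed in both groups at the promoter of Nr4a3 and at neither for Aqp5, Gpr4 or Tchh.

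The largest differences at promoters with at least 1000 bp of peak in both groups were taken from 942 regions. On the lower side in HFD-O304, Higd1a, a mitochondrial hypoxia-response gene, had 4.96 in HFD and 3.63 in HFD-O304, a log2 ratio of −0.45 (−0.75 to −0.15). Dcc, a netrin receptor, had 4.33 and 3.20, and Tenm3, a teneurin of neural wiring, had 4.03 and 3.07. Fjx1, Prokr1, Tmem178, Cacna1i and Prss12 also lay between −0.42 and −0.37. On the higher side, Ankrd63 had 3.64 in HFD and 4.70 in HFD-O304, a log2 ratio of 0.37 (0.12 to 0.61). Aldh1a2, which makes retinoic acid, had 3.78 and 4.66, a log2 ratio of 0.30 (0.03 to 0.58). Klf14, an imprinted metabolic regulator, had 5.26 and 6.27. These are the extremes of 942 regions and were picked by their values.

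The longest regions of each group that were not repeat-rich also lay apart from islet genes. In HFD-O304 only they lay nearest to Vmn2r49 (4205 bp), Prl2c2 (3234 bp) and Obox2 (3148 bp and 3088 bp), with region lengths in brackets. Their distances to the nearest start site were 12620 bp, 76209 bp, 235043 bp and 212485 bp in that order. The genes are members of multi-copy families, and the regions had values between 3.14 and 3.48. In HFD only they lay nearest to Grap2 (2364 bp), Igdcc3 (2265 bp), Wnt9a (2238 bp), Vwc2 (2122 bp) and Aqp5 (2107 bp). The last 2 reached the promoter of the gene, and the others lay 7331 bp, 17049 bp and 5143 bp from the nearest start site.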

How the data were processed

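H3K27Me3 ChIP-seq of islets was analysed for 2 groups, HFD and HFD-O304, with 2 replicates each, grouped by the sample titles. Reads were paired-end and had been aligned by the authors with bowtie2 to GRCm38 (Ensembl release 96). The replicates were merged before peak calling with MACS 2.1.2 in broad mode. The file headers give a q cutoff of 0.01, an effective genome size of 1.87e+09 and a limit of 1 fragment per position, with uniform background and no control. The deposited lists give for each peak the mean pileup (a coverage signal in fragments per base), −log10 p (not used) and −log10 q, and a fold enrichment, which is a ratio to background. The input samples were not used.

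The pileup was divided by the uniform background (kept fragments times fragment size over effective genome size). Peaks of chromosomes 1 to 19 were joined at an overlap of 1 bp. The highest peak of each list represented a region or promoter, while bases were summed over peaks. Start sites came from GENCODE mouse release 21. Repeat masking, CG counts and the 2 peak sequences came from the RefSeq GRCm38.p6 genome, which is of C57BL/6J and not CBA, and the promoter sequences came from the RefSeq table of the same build, which held 15687 of 20780 gene symbols. CG counts of all 20807 genes were therefore read from the genome, at the outermost annotated start of each gene. A ratio of 1.5-fold was used as a limit of size. Ratio intervals were exact conditional (Clopper-Pearson) intervals. No column of per-sample values was left unmapped. Joining was tested on simulated data. Python 3.11.15, pandas 2.3.3, numpy 2.4.6, scipy 1.17.1 and matplotlib 3.10.9 were used.

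Named genes were the members of the 17 lists; the 10 promoter peaks of each single group with the highest −log10 q, under 50% repeat-masked and at most 10 times background; the 10 highest and 10 lowest ratios at promoters under 50% repeat-masked with 1000 bp or more of peak in both lists; and the 5 longest regions of each single group and the 5 that differed most in bases in each direction, under 50% repeat-masked. Predicted genes were not named, and a few genes that the rules name are not reported here. The members and lists were chosen with earlier results of these data known. Listed genes on the X chromosome, non-coding genes and 1 name absent from the annotation were not assessed.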

Additional observations from a re-analysis of the deposited data

Results flagged for a closer look

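Peaks on X, Y and other sequences entered no comparison. H3K27Me3 was listed there at 1184 peaks in HFD, of which 856 were on X or Y and 328 on patches and unplaced sequences. In HFD-O304 the number was 1760, of which 1342 were on X or Y and 418 on other sequences. No control was subtracted, and neither number was tested.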

How the results depend on the processing

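No paired analysis was possible because each group had 1 list of merged replicates, and leaving out a replicate was not possible either. Of the alternatives, 58 values stayed within their limits, 45 moved and 3 turned direction. The cause was not tested. With a −log10 q of at least 5, shared, HFD-O304 only and HFD only regions numbered 3250, 2610 and 1010, their promoter shares were 9.51%, 7.93% and 21.6%, their shares with H3K27Ac were 65.0%, 28.5% and 36.1%, and promoters numbered 314 in both and 214 in HFD-O304 only. Shared regions with that q in both lists had 14 higher and 9 lower by 1.5-fold and a median log2 ratio of 0.042. Peaks were cut before joining, so the single-group regions and promoters at that q include shared ones whose other peak fell below it. With lists of equal size, regions in HFD-O304 only numbered 4759, promoter shares were 15.8%, 4.79% and 14.5% in the same order, H3K27Ac shares were 41.2% for shared and 8.03% for HFD-O304 only, and promoters numbered 213 in HFD-O304 only and 615 in HFD only. A common limit gave a promoter share of 12.8% for HFD only and H3K27Ac shares of 39.0% for shared and 7.42% for HFD-O304 only.

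Without repeat-rich peaks the regions numbered 3987, 2694 and 1418, with promoter shares of 43.8%, 16.8% and 24.2%, and H3K27Ac shares of 13.9% for HFD-O304 only and 22.8% for HFD only. Without repeat-rich regions 14 shared regions were higher and 3 lower by 1.5-fold, and the median log2 ratio turned from 0.0066 to −0.037. Without peaks above 10 times background the H3K27Ac share of shared regions was 36.8%. A promoter window of 500 bp gave shares of 4.58% for HFD-O304 only and 9.71% for HFD only, and one of 2000 bp gave 18.3%, 7.12% and 14.3%. The median log2 ratio of shared regions was 0.026 from the fold enrichment column, 0 once centred and 0.069 without scaling. Without scaling, chosen after seeing the data, the median turned from −0.037 to 0.026 in regions that were not repeat-rich and from −0.052 to 0.010 at promoters marked in both, and was 0.10 in repeat-rich regions.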

Other observations

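Families outside the lists were chosen after their values were seen, and their shares are read beside 2.06% of all genes in HFD-O304 only and 1.49% in HFD only. Of 67 histone cluster genes, 12 (17.9%) had a promoter peak in HFD only, 2 in HFD-O304 only and 2 in both groups. The 12 rested on 6 peaks with a pileup over background between 3.12 and 3.93, and all 12 promoters had H3K27Ac in both groups. Neighbouring histone genes share a start region, so the genes are not independent. Of 42 collagen genes, 11 were marked in both groups, 8 in HFD-O304 only and 3 in HFD only. The value was lower in HFD-O304 at all 11 with scaling, with log2 ratios from −0.13 to −0.01, and at 6 without. Col4a1 and Col4a2 share 1 pair of peaks. Of 1128 olfactory receptor genes, 11 (0.975%) were marked in HFD-O304 only, 4 (0.355%) in HFD only and 2 in both groups, which is below the shares of all genes. Reads of these multi-copy genes could be split between copies.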
